A study of Mus musculus with 9 samples.

Results

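MIZ-treated SVF cells were compared with vehicle-treated SVF cells at the end of 6 days of adipogenic differentiation, gene by gene, from raw RNAseq counts. A gene entered the comparison when 3 or more of the 6 libraries concerned held 5 or more counts of it. That took in 16344 of 32285 gene identifiers and 99.98% of the counts. SVF cells are what remains of adipose tissue once mature adipocytes are taken away. Here they came from subcutaneous white adipose tissue of wild-type mouse pups 4 to 6 days old. Both groups received the same media, an induction mix of insulin, dexamethasone and IBMX for 2 days and then insulin, troglitazone, rosiglitazone and T3. One group also received DMSO as the vehicle (3 libraries) and the other 25 µM MIZ (3 libraries). Undifferentiated SVF cells (3 libraries) entered the fit to share its estimate of spread, and their levels are given here only for orientation. The labels tie no library to an animal, so the p-values measure the spread between these samples. The cultures are mixed primary cells that can hold fibroblasts, smooth muscle cells, macrophages and other cells of the depot besides preadipocytes.

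MIZ (mizoribine) inhibits IMP dehydrogenase, the rate-limiting enzyme of guanine nucleotide synthesis. GTP is a building block of RNA and DNA and also the switch of G proteins and small GTPases. Preadipocytes decide between staying fibroblast-like and becoming adipocytes under the control of secreted signals, among them TGF-beta, WNT, BMP and FGF ligands, and of a cascade of transcription factors that ends in PPARγ and C/EBPα. The genes of these signals, their receptors, their intracellular relays and the transcription factors are the main subject of what follows.

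The labels name the samples primary adipocytes, and adipocyte markers were present in both groups but differed in level. The summed level of 14 adipocyte markers was 24220 to 25610 CPM (counts scaled to a common library size, with TMM normalization) with vehicle and 2599 to 3056 CPM with MIZ, and all 13 markers that could be tested were lower with MIZ (Lep stayed under 1 CPM). Markers of smooth muscle cells, pericytes and myofibroblasts summed to 253 to 296 CPM with vehicle and 7566 to 9883 CPM with MIZ (10 higher and 2 lower of 14), with Kcnj8 under 1 CPM. Most of the MIZ sum came from Acta2 and Tagln, and the lower members were Cspg4 (63 to 12.4 CPM) and Abcc9 (2.57 to 0.751 CPM), both used as pericyte markers. Preadipocyte and fibroblast markers summed to 6916 to 7622 CPM and 9880 to 12090 CPM, in that order (7 higher and 3 lower of 13). Most of these sums came from Col1a1, Col3a1 and Fbn1, and Col3a1, Lum and Cd34 fell (log2 fold changes -0.83, -2.59 and -1.02), with Dpp4 and Pi16 under 1 CPM. Macrophage markers summed to 636 to 1112 CPM and 1121 to 1521 CPM (6 higher and 2 lower of 14). Most of the MIZ sum came from Lyz2 and Adgre1. Mrc1 and Fcgr1 fell (log2 fold changes -0.79 and -1.12), and Csf1r, Cd68, Itgam, Ptprc, Cd14 and Fcer1g were not called. Markers of Schwann cells and neurons summed to 66.4 to 69.8 CPM with vehicle and 673 to 743 CPM with MIZ, most of the latter from Ncam1, with Elavl4 under 1 CPM. Markers of skeletal muscle summed to 8.28 to 13.2 CPM and 45.9 to 71.3 CPM, most of the latter from Acta1, with Myod1, Myog and Pax7 under 1 CPM. Endothelial markers summed to at most 15.0 CPM in these groups, with Pecam1, Cdh5 and 5 more of 12 under 1 CPM, and the defining markers of mesothelial (Krt19 excepted), epithelial, lymphoid and erythroid cells were at or near 0. For 3 against 3 libraries, an exact permutation test cannot give a two-sided p below 0.1, and each of these sums except the erythroid one gave 0.1. In bulk RNA, fewer cells of a type and less RNA per cell cannot be told apart.

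Libraries held 28760721 to 50262228 counts with vehicle and 33504937 to 43281818 counts with MIZ, and mitochondrially encoded genes took 3.82 to 5.0% and 0.686 to 0.836% of them. Vehicle replicate 1 had the fewest counts and stood farthest from the other libraries of its group, so the results that rest on it are also given without it. Of 16344 genes tested with edgeR, 6058 (37.1%) were higher with MIZ and 5966 (36.5%) lower at an adjusted p under 0.05, and 2666 (16.3%) and 2813 (17.2%) differed over 2-fold. Without vehicle replicate 1, 6090 genes were higher and 6159 lower. The median log2 fold change over all genes was 0.01. With calls in so large a share of all genes, a called member is common, and the counts below are to be read beside 37.1% and 36.5%.

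Listed signalling and transcription factor genes were higher with MIZ more often than lower. The lists were chosen with earlier results of these data known, so their shares describe them and do not test them. Of 1581 listed genes, 1161 passed the filter on low counts. Of these, 555 (47.8%) were higher and 354 (30.5%) lower. Their median log2 fold change was 0.26. Secreted factors counted 111 higher and 74 lower of 234 tested, receptors 160 and 108 of 341, intracellular relays 144 and 75 of 272, and transcription factors 143 and 98 of 318. The libraries of the groups did not overlap for 77.3% of these members, against 75.0% of all genes. Of 41 lists, 31 held more higher than lower genes, 6 held more lower genes and 4 as many of each. Genes of SMAD and ID proteins (82.6% higher), TGF-beta superfamily receptors (71.4%) and the Hippo pathway (70.0%) had the largest shares of higher members. Nuclear receptors (57.1% lower) and adipokines and peptide hormones (55.2%) had the largest shares of lower members.

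**Figure D1:**
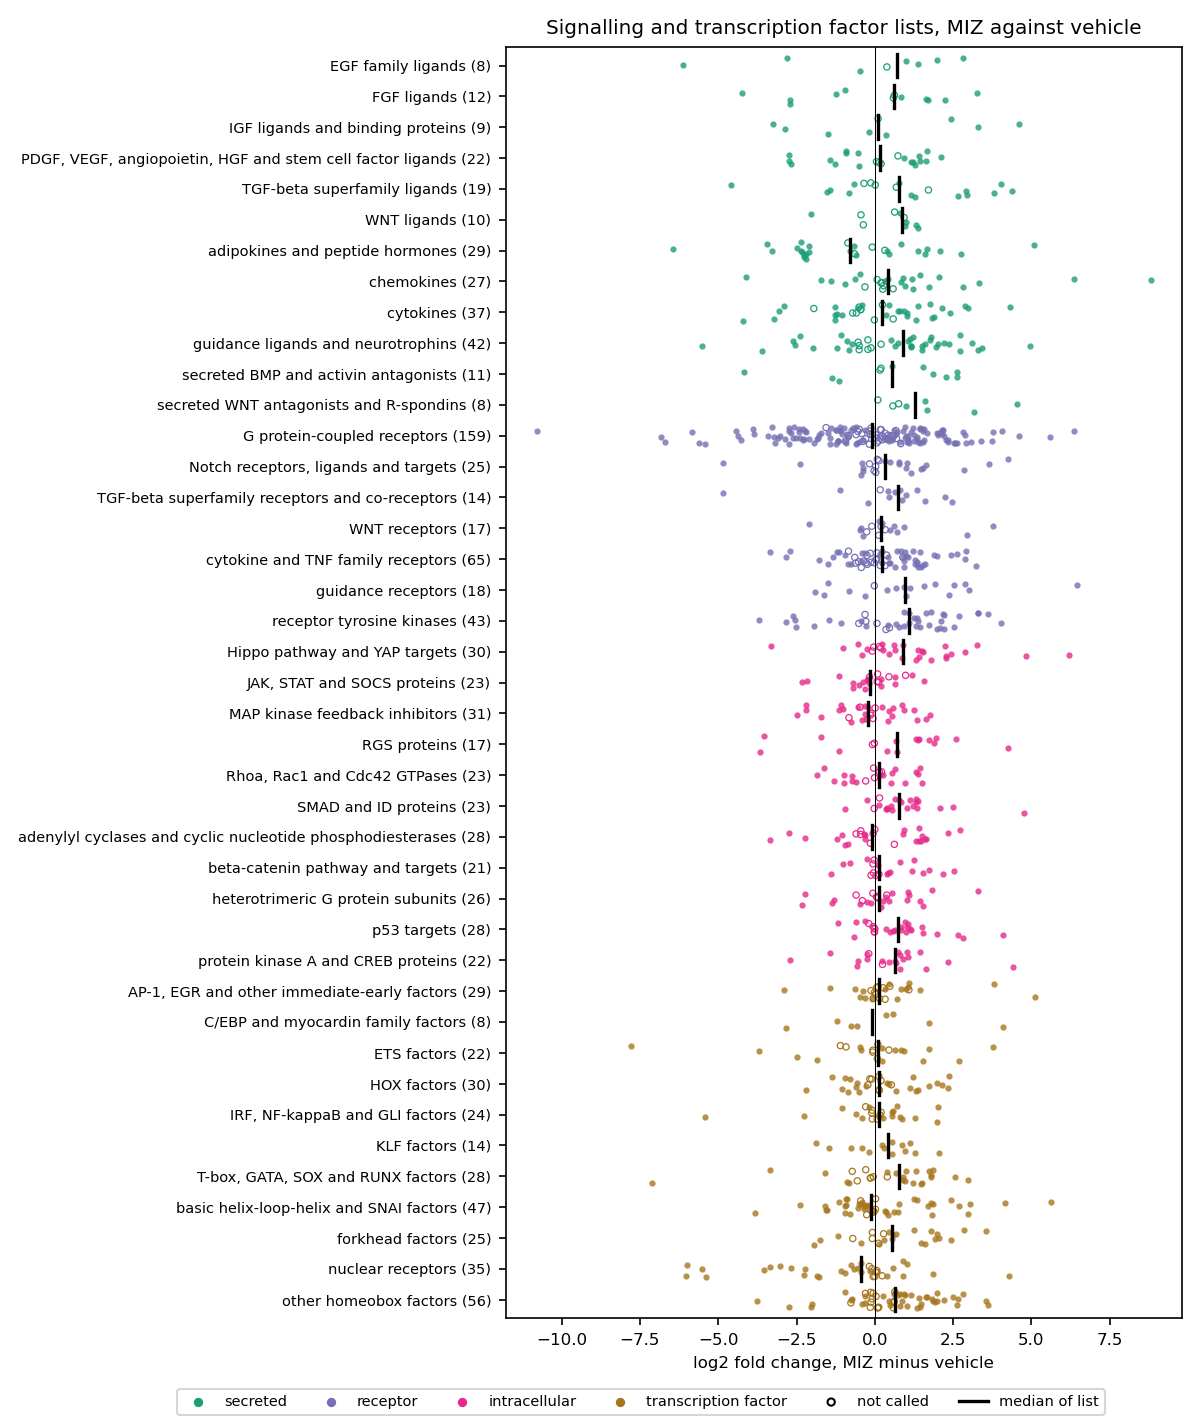
Log2 fold change (MIZ minus vehicle, x axis) of every tested gene in 41 signalling and transcription factor lists (y axis, number tested in brackets). Filled points are genes called at an adjusted p under 0.05 and open points are not called, the black bar is the list's median, and medians run from -0.78 for adipokines and peptide hormones to 1.29 for secreted WNT antagonists and R-spondins.

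The genes of the target itself moved in opposite directions. Impdh1 (ENSMUSG00000003500, chr6:29200434-29216364) was at 124, 179 and 189 CPM with vehicle and 35.9, 33.9 and 36.7 CPM with MIZ (log2 fold change -2.21, standard error 0.133, adjusted p = 7.3e-08, edgeR). Impdh2 (ENSMUSG00000062867, chr9:108560286-108565584) was at 42.8, 44.9 and 44.8 CPM with vehicle and 140.5, 136 and 155 CPM with MIZ (log2 fold change 1.70, standard error 0.061, adjusted p = 1.22e-09). All 3 MIZ libraries lay below all vehicle libraries for Impdh1 and above them for Impdh2, which overlaps Ndufaf3 on the other strand. Undifferentiated cells held 28.9 CPM of Impdh1, close to the level with MIZ, and 53.7 CPM of Impdh2. Of 12 enzymes of guanine nucleotide metabolism, 5 were higher and 5 lower, among them Gda, the guanine deaminase, which fell from 266 ± 17 to 36.1 ± 2.35 CPM (log2 fold change -2.88).

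The 12 largest rises among signalling and transcription factor genes with a mean of at least 5 CPM in either group went to secreted factors, targets of the Hippo pathway and a few regulators that were almost silent with vehicle. To be eligible, a gene also had to be called, with no overlap between its MIZ and vehicle libraries. That separation was therefore a condition of the choice, and 75.0% of all genes tested met it. Below, the largest rise or fall of a list is meant within the same limits, and where values of every library are given, all MIZ libraries lay on one side of all vehicle libraries unless said otherwise. Ccl20 (ENSMUSG00000026166, chr1:83116766-83119167), the chemokine that draws CCR6-bearing lymphocytes and dendritic cells, had 0.0373, 0.0855 and 0.0885 CPM with vehicle and 3.9, 5.76 and 9.62 CPM with MIZ, an 81.3-fold rise (log2 fold change 6.34, standard error 0.488, adjusted p = 5.57e-07, edgeR). Ccn2 (ENSMUSG00000019997, chr10:24595442-24598683), the matricellular protein also known as connective tissue growth factor, had 12.8, 6.88 and 8.96 CPM with vehicle and 599, 649.5 and 788 CPM with MIZ (log2 fold change 6.19, standard error 0.199, adjusted p = 5.26e-10). Ankrd1 (ENSMUSG00000024803, chr19:36111961-36120099), a muscle ankyrin repeat protein and a classic YAP target, had 1.23, 0.705 and 0.686 CPM with vehicle and 19.5, 23.2 and 28.1 CPM with MIZ (log2 fold change 4.83, standard error 0.215, adjusted p = 6.71e-09). Every MIZ library was far above every vehicle library for each of these genes, and above every undifferentiated library too. Ccn2 overlaps the gene model Gm15270 on the other strand, and the strand setting of the counting is not given in the sources used here, so its counts may hold reads of both.

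A pair of transcription factor genes was in this group. Npas4 (ENSMUSG00000045903, chr19:4984355-4990316), an activity-dependent bHLH-PAS factor best known from neurons, had 0.0746, 0.0855 and 0.177 CPM with vehicle and 4.87, 4.81 and 8.09 CPM with MIZ (log2 fold change 5.61, standard error 0.385, adjusted p = 2.2e-07, edgeR). Mycl (ENSMUSG00000028654, chr4:122995652-123002485), a member of the MYC family, had 1.6, 1.48 and 1.59 CPM with vehicle and 42.3, 48.5 and 70 CPM with MIZ (log2 fold change 5.11, standard error 0.209, adjusted p = 3.41e-09). The MIZ libraries lay far above both other groups for Mycl, with 1.9 CPM in undifferentiated cells, and the same held for Npas4, with 1.3 CPM.

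Several secreted regulators that undifferentiated cells also carried were low with vehicle and high with MIZ. Ltbp2 (ENSMUSG00000002020, chr12:84783212-84876532), a latent TGF-beta binding protein of the matrix, had 44.2, 55.9 and 62.2 CPM with vehicle and 1410, 1455 and 1600 CPM with MIZ (log2 fold change 4.78, standard error 0.119, adjusted p = 1.11e-10, edgeR), and undifferentiated cells had 1096 CPM. Tgfb3 (ENSMUSG00000021253, chr12:86056745-86079041), a TGF-beta ligand, had 4.7, 7.78 and 8.92 CPM with vehicle and 145, 140 and 169 CPM with MIZ (log2 fold change 4.37, standard error 0.172, adjusted p = 2.45e-09), and undifferentiated cells 106 CPM. Dkk3 (ENSMUSG00000030772, chr7:112116017-112159057), a secreted protein of the Dickkopf family, had 1.04, 1.6 and 2.21 CPM with vehicle and 40.8, 36.8 and 40 CPM with MIZ (log2 fold change 4.53, standard error 0.154, adjusted p = 8.18e-10), below the 106 CPM of undifferentiated cells. The spread within the MIZ group was small beside the difference for each of these genes. Ltbp2 and Tgfb3 each overlap a gene model on the other strand.

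Igfbp2 (ENSMUSG00000039323, chr1:72824503-72852474), which binds insulin-like growth factors, had 1.68, 1.86 and 1.73 CPM with vehicle and 41.4, 49.3 and 39.5 CPM with MIZ (log2 fold change 4.62, standard error 0.112, adjusted p = 9.81e-11, edgeR). Ntn4 (ENSMUSG00000020019, chr10:93640681-93747207), a netrin of basement membranes, had 0.56, 0.727 and 1.24 CPM with vehicle and 26.4, 27.4 and 28.5 CPM with MIZ (log2 fold change 4.96, standard error 0.195, adjusted p = 2.48e-09). The MIZ libraries of both genes lay above the vehicle and the undifferentiated libraries. Tbxa2r (ENSMUSG00000034881, chr10:81328731-81335172), the thromboxane A2 receptor, had 0.298, 0.492 and 0.487 CPM with vehicle and 11.4, 9.51 and 11.7 CPM with MIZ (log2 fold change 4.60, standard error 0.147, adjusted p = 5.11e-10), below the 33.8 CPM of undifferentiated cells. Rapgef3 (ENSMUSG00000022469, chr15:97744770-97767972), the cAMP-activated exchange factor EPAC1, had 0.522, 0.534 and 0.376 CPM with vehicle and 9.76, 10.5 and 10.3 CPM with MIZ (log2 fold change 4.42, standard error 0.136, adjusted p = 4.01e-10), and it overlaps antisense gene models. Vehicle libraries stayed under 1 CPM for both Tbxa2r and Rapgef3.

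Since Ccn2 and Ankrd1 are known targets of the TEAD factors, the promoters of the leading genes were searched for the core TEAD letters GGAATG, the AP-1 letters TGACTCA and the CArG box, on both strands, in windows from 250 bases before to 50 bases after the start (RefSeq, GRCm38.p6). Of all 32851 windows, 14.7% held the TEAD letters, 5.20% the AP-1 letters and 1.63% a CArG box. Of 12 leading rises, 9 have a window (Ccn2, Dkk3 and Tgfb3 do not, so Ccn2 was not searched), and the TEAD letters were in those of Ccl20 and Ankrd1 and the AP-1 letters in 1 of Igfbp2. Of 12 leading falls, 8 have a window, and the TEAD letters were in 1 of Adora1 and the AP-1 letters in 1 of Rbp4, and no window of either group held a CArG box. A match says only that the letters are in the window. Ankrd1 (chr19:36119795-36120094, minus strand) holds 2 matches, starting 210 and 123 bases before its start, Ccl20 (chr1:83116516-83116815, plus strand) holds 1 on the opposite strand, starting 45 bases before, and Adora1 (chr1:134234807-134235106, minus strand) holds 1, starting 177 bases before. The windows of these genes, 2 that rose and 1 that fell, are shown with the matched letters in capitals.
Ankrd1: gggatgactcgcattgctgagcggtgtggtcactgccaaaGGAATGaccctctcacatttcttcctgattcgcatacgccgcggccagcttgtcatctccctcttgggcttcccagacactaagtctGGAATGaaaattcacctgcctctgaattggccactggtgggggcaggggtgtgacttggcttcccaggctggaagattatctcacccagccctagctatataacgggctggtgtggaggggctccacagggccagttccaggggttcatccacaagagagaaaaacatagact
Ccl20: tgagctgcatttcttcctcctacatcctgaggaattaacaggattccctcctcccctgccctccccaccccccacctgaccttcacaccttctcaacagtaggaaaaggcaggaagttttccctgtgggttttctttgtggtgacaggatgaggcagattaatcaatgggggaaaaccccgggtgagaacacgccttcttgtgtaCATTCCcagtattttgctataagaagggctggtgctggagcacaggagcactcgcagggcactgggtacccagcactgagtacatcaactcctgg
Adora1: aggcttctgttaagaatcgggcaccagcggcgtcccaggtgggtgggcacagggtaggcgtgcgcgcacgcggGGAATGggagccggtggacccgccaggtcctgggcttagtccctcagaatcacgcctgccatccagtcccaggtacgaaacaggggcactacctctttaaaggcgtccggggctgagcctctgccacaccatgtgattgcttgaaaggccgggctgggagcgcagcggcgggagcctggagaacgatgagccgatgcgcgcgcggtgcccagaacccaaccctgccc

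Of the 12 largest falls by the same limits, 11 are given here. They went mainly to receptors, and all of the 11 except Bmp3 were under 1 CPM in undifferentiated cells. Ntsr2 (ENSMUSG00000020591, chr12:16653382-16660227), a neurotensin receptor, had 5.15, 6.09 and 4.54 CPM with vehicle and 0 counts in all MIZ libraries, so it was at least 203-fold lower (against a floor of 3 counts over the MIZ group, counting error only). Gipr (ENSMUSG00000030406, chr7:19156061-19166127), the receptor of the incretin GIP, had 2.5, 9.77 and 9.14 CPM with vehicle and 0.0676, 0.0811 and 0.0294 CPM with MIZ (log2 fold change -6.84, standard error 0.703, adjusted p = 6.04e-06, edgeR), and vehicle replicate 1 was the lowest of its group. Ffar4 (ENSMUSG00000054200, chr19:38097071-38114263), a receptor for long-chain fatty acids, had 31.9, 51.3 and 49.1 CPM with vehicle and 0.338, 0.324 and 0.647 CPM with MIZ (log2 fold change -6.69, standard error 0.265, adjusted p = 2.6e-09). Adora1 (ENSMUSG00000042429, chr1:134199223-134235431), the adenosine A1 receptor that restrains lipolysis, had 148, 101 and 80.3 CPM with vehicle and 2.07, 2.4 and 2.21 CPM with MIZ (log2 fold change -5.62, standard error 0.256, adjusted p = 9.68e-08). Mc5r (ENSMUSG00000007480, chr18:68337596-68342446), a melanocortin receptor, had 42.8, 38.1 and 35.7 CPM with vehicle and 1.01, 0.946 and 0.735 CPM with MIZ (log2 fold change -5.41, standard error 0.12, adjusted p = 5.85e-11). By the choice of genes, no library of one group reached the other for any of these receptors. Adora1 overlaps Mybph on the other strand.

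Acvr1c (ENSMUSG00000026834, chr2:58267453-58357895), which encodes ALK7, the activin receptor of adipocytes, had 125, 105 and 103 CPM with vehicle and 2.57, 3.54 and 5.68 CPM with MIZ (log2 fold change -4.85, standard error 0.231, adjusted p = 1.11e-08, edgeR), and it is also one of the adipocyte markers. Bmp3 (ENSMUSG00000029335, chr5:98854415-98884396), a BMP family member that acts against other BMPs, had 36.3, 26 and 23.9 CPM with vehicle and 1.01, 1.24 and 1.35 CPM with MIZ (log2 fold change -4.58, standard error 0.194, adjusted p = 4.48e-09). Bmp3 with MIZ was also below the 11.2 CPM of undifferentiated cells. Rbp4 (ENSMUSG00000024990, chr19:38116629-38125281), the retinol carrier of blood, had 158, 279.7 and 334 CPM with vehicle and 2.62, 2.7 and 3.59 CPM with MIZ (log2 fold change -6.45, standard error 0.288, adjusted p = 6.77e-09). Vehicle replicate 1 was the lowest of its group for Rbp4 and Sema3g and the highest for Adora1, Acvr1c and Bmp3. Nrg4 (ENSMUSG00000032311, chr9:55220222-55326844), an EGF family ligand secreted by brown fat, had 17.4, 16.4 and 15.7 CPM with vehicle and 0.0676, 0.324 and 0.353 CPM with MIZ (log2 fold change -6.11, standard error 0.283, adjusted p = 9.09e-09), and it overlaps Fbxo22 on the other strand. Sema3g (ENSMUSG00000021904, chr14:31217860-31230352), a class 3 semaphorin, had 28, 59.8 and 63.4 CPM with vehicle and 0.902, 1.03 and 1.41 CPM with MIZ (log2 fold change -5.53, standard error 0.338, adjusted p = 8.43e-08).

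Ppara (ENSMUSG00000022383, chr15:85734983-85802819), a nuclear receptor gene whose product senses fatty acids and drives fatty acid oxidation genes, had 73, 74.5 and 68 CPM with vehicle and 1.69, 1.51 and 1.91 CPM with MIZ (log2 fold change -5.40, standard error 0.113, adjusted p = 4.17e-11, edgeR). It stayed within a narrow range in each group. Adipocyte markers fell in the same libraries by the values given above, and their part in these falls was not tested.

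**Figure D2:**
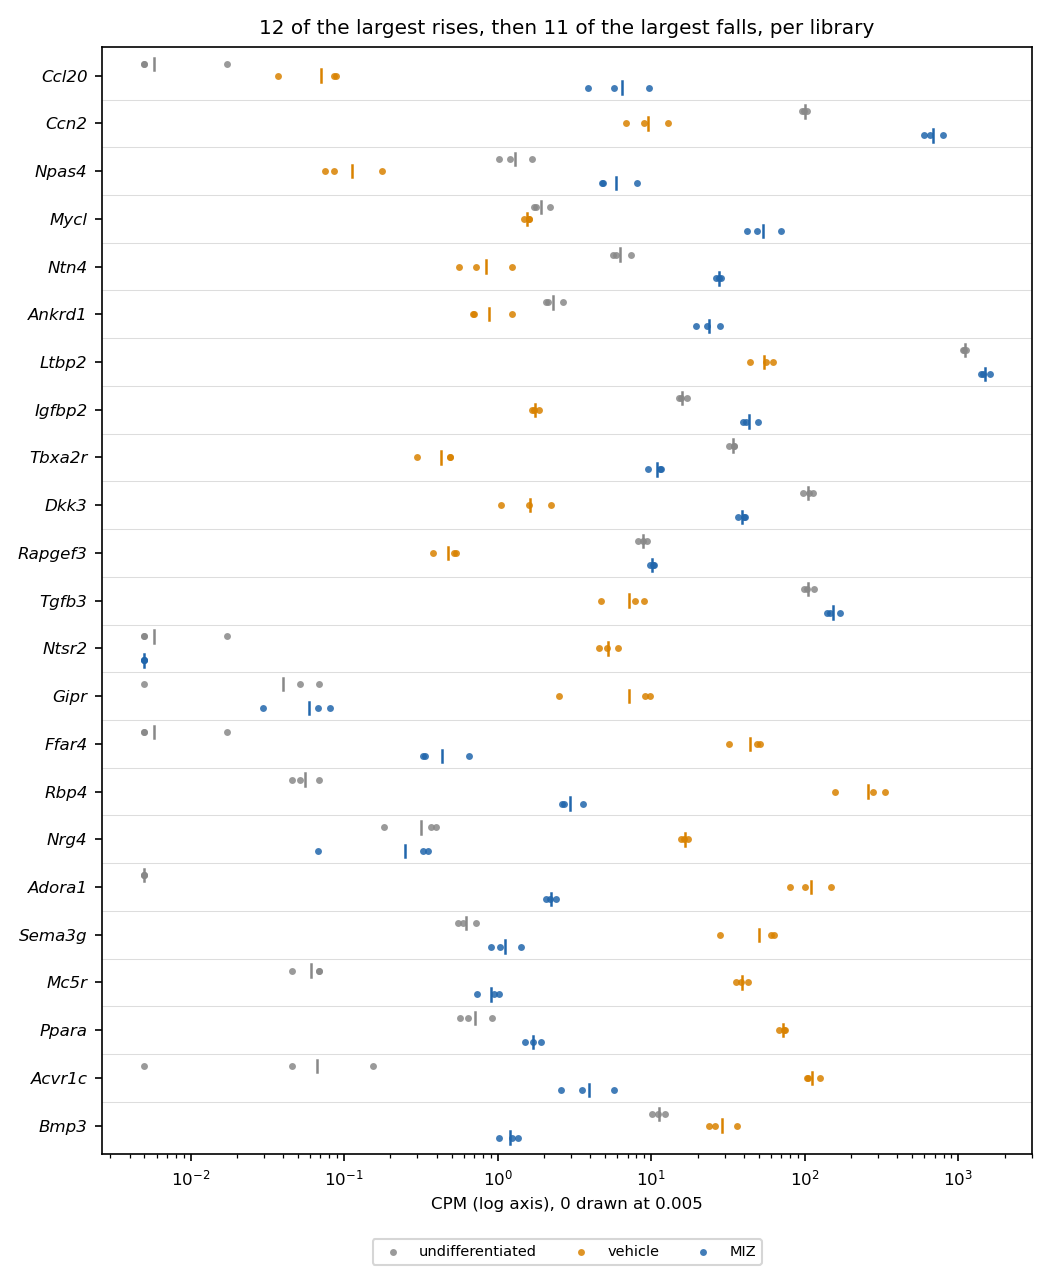
CPM (log axis, 0 drawn at 0.005) of 23 leading genes in each library, with undifferentiated, vehicle and MIZ libraries in grey, orange and blue and vertical bars at group means (n = 3). By the choice of genes, the first 12 had all MIZ points above all vehicle points and the last 11 had all MIZ points below them. Ntsr2 was at 0 in every MIZ library.

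Ligands of the TGF-beta superfamily, which hold back adipogenesis or, for some BMPs, promote it, were 9 higher and 5 lower of 19 tested. Besides Tgfb3, these genes, named after their values were seen, rose with MIZ. Inhbb, the activin B subunit, had 4.22, 6.52 and 6.82 CPM with vehicle and 96.7, 98.5 and 99.5 CPM with MIZ (log2 fold change 4.04, standard error 0.14, adjusted p = 9.36e-10, edgeR). Inhba, the activin A subunit, had 24, 25.8 and 20.7 CPM with vehicle and 128, 145 and 168 CPM with MIZ (log2 fold change 2.64, standard error 0.106, adjusted p = 2.81e-09). Tgfb1 had 72.7, 54 and 55.9 CPM with vehicle and 103, 112 and 98.6 CPM with MIZ (log2 fold change 0.78, standard error 0.0993, adjusted p = 3.23e-05). The activin subunits rose to levels above those of undifferentiated cells (25.6 and 93.5 CPM), while Tgfb1 stayed below its level there (149 CPM). Gdf11 rose from 2.3 ± 0.555 to 17.8 ± 1.84 CPM and Bmp6 from 1.56 ± 0.539 to 11.5 ± 1.59 CPM, the latter a gene that overlaps Txndc5. Gdf15, a stress-induced ligand, fell from 27.6 ± 6.99 to 17.7 ± 1.01 CPM (log2 fold change -0.65). Secreted antagonists of BMPs and activins were 6 higher and 3 lower of 11. Fstl1, a follistatin-like glycoprotein, had 409, 387 and 332 CPM with vehicle and 2474, 2253 and 2255 CPM with MIZ (log2 fold change 2.63, standard error 0.0836, adjusted p = 4.88e-10), the largest rise of that list. Chrdl1, a chordin-like BMP antagonist, had 28.1, 25.7 and 23.8 CPM with vehicle and 1.13, 1.41 and 1.85 CPM with MIZ (log2 fold change -4.16, standard error 0.15, adjusted p = 1.26e-09), its largest fall. Fstl3, Nbl1 and Bmper also rose, with log2 fold changes of 2.26, 2.62 and 1.55. Grem1 (78 to 89.4 CPM) and Fst (50 to 56 CPM) were not called, although Grem1 passed without vehicle replicate 2 at 0.35 (adjusted p = 0.0412, edgeR) and Fst without MIZ replicate 2 at 0.23 (adjusted p = 0.0148, edgeR) and without vehicle replicate 1 at 0.17 (adjusted p = 0.0499, edgeR).

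Receptors of this superfamily were 10 higher and 3 lower of 14, against 37.1% and 36.5% of all genes. Bmpr1b, a type I BMP receptor, had 3.58, 1.79 and 1.37 CPM with vehicle and 9.85, 11.1 and 14.1 CPM with MIZ (log2 fold change 2.46, standard error 0.267, adjusted p = 9.45e-06, edgeR) and rose most. Among receptors named after their values were seen, Eng, the co-receptor endoglin, rose from 11.7 ± 1.49 to 54.6 ± 2.81 CPM and Acvr1, the type I receptor ALK2, from 18.3 ± 0.648 to 55.5 ± 0.784 CPM. The TGF-beta receptors Tgfbr1 (49.8 to 67.9 CPM), Tgfbr2 (118 to 186 CPM) and Tgfbr3 (281 to 491 CPM) rose less, with log2 fold changes of 0.45, 0.65 and 0.81. Acvr1c was the receptor that fell most. Downstream, 19 of 23 genes for SMADs, IDs and latent TGF-beta binding proteins were higher and 2 lower. Pmepa1 and Skil, feedback inhibitors that TGF-beta induces, rose from 34.2 ± 1.51 to 146 ± 11.5 CPM and from 60 ± 0.704 to 148 ± 13 CPM. Smad7, the inhibitory SMAD, from 28.3 ± 8.38 to 71.4 ± 3.5 CPM, and Smad3 from 32.5 ± 2.12 to 84.4 ± 5.47 CPM. Smad2 (66.2 to 65.1 CPM) was not called, and Ltbp3 had 209.8, 249.7 and 239 CPM with vehicle and 122, 112 and 124 CPM with MIZ, the largest fall of the list (log2 fold change -0.96). Myofibroblast and smooth muscle markers such as Acta2 (34.4 to 3605 CPM) and Myl9 (4.26 to 619 CPM) rose in the same libraries, and their part in these counts was not tested.

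**Figure D3:**
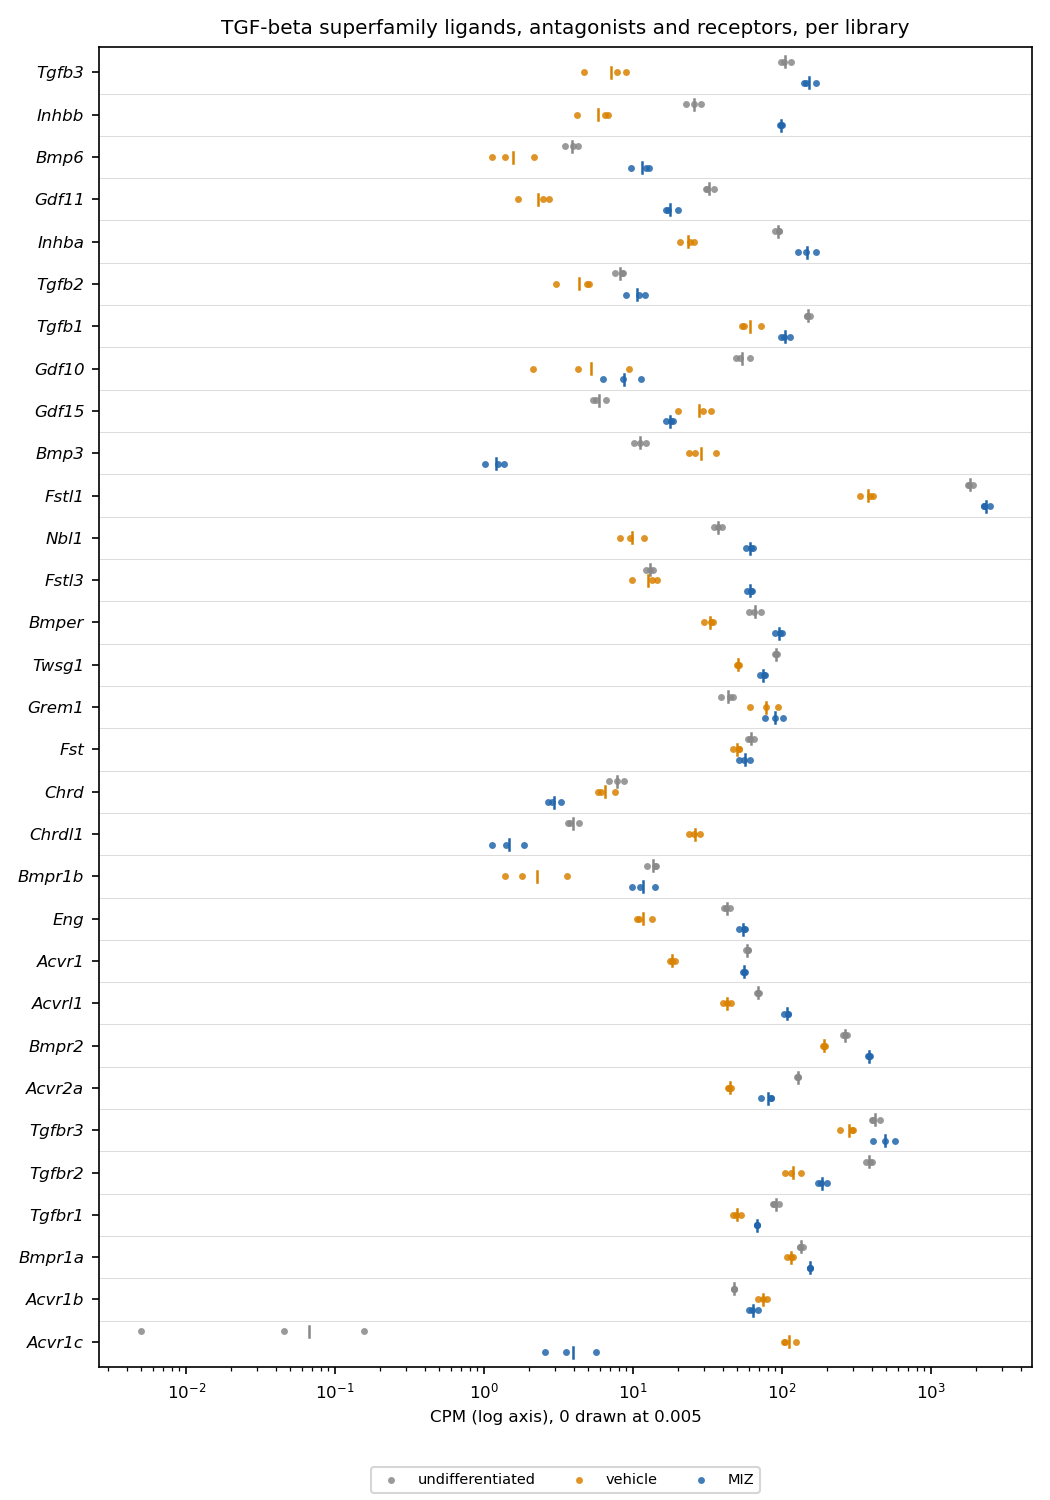
CPM (log axis, 0 drawn at 0.005) in each library of TGF-beta superfamily ligands, secreted antagonists and receptors with a mean of at least 5 CPM with vehicle or MIZ, each set in order of its log2 fold change. Bars are group means (n = 3), and Tgfb3, Fstl1 and Bmpr1b head their sets while Bmp3, Chrdl1 and Acvr1c close them.

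WNT ligands, several of which hold preadipocytes undifferentiated, counted 5 higher and 1 lower of 10 tested. Wnt9a had 1.98, 3.23 and 3.61 CPM with vehicle and 5.79, 5.46 and 6.44 CPM with MIZ (log2 fold change 0.97, standard error 0.168, adjusted p = 0.000366, edgeR), and Wnt5a, named after its values were seen, rose from 15.6 ± 2.59 to 26.9 ± 1.48 CPM. Of 8 secreted WNT antagonists and R-spondins, 5 were higher and 0 lower, led by Dkk3, and Sfrp1, a decoy for WNT proteins, rose from 45 ± 17.9 to 405 ± 73.9 CPM with 2777 CPM in undifferentiated cells. Frzb (4.18 to 6.76 CPM) was not called with all libraries, and without vehicle replicate 1 its log2 fold change was 1.31 (adjusted p = 0.000263, edgeR). WNT receptors were 8 higher and 4 lower of 17. Fzd2 had 4.03, 7.27 and 7.57 CPM with vehicle and 96.3, 79.2 and 87.5 CPM with MIZ (log2 fold change 3.76, standard error 0.167, adjusted p = 6.36e-09). Fzd4 had 126, 124 and 135 CPM with vehicle and 30.9, 29.4 and 28.4 CPM with MIZ (log2 fold change -2.12, standard error 0.0539, adjusted p = 1.24e-10), so that the most changed frizzled genes moved apart, and the co-receptor gene Lrp5 fell slightly (95.1 to 72.9 CPM). Within the beta-catenin pathway, 11 genes were higher and 4 lower of 21. Ccnd1, the gene of cyclin D1, had 20.8, 22.8 and 26.1 CPM with vehicle and 145, 139 and 121 CPM with MIZ (log2 fold change 2.53, standard error 0.0881, adjusted p = 9.6e-10). Apcdd1, an inhibitor of WNT at the membrane, had 27.9, 30.8 and 38.1 CPM with vehicle and 11, 13.9 and 12.3 CPM with MIZ (log2 fold change -1.39, standard error 0.121, adjusted p = 1.59e-06). Ctnnb1 itself rose from 326 ± 7.71 to 438 ± 1.38 CPM (log2 fold change 0.43).

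Several growth factor lists held equal numbers of higher and lower genes with TMM and all libraries. FGF ligands were 5 higher and 5 lower of 12, PDGF, VEGF, angiopoietin, HGF and stem cell factor ligands 9 and 9 of 22, and IGF ligands and binding proteins 4 and 4 of 9, but without TMM the counts were 6 and 5, 11 and 8, and 5 and 3. The balance also depended on other settings. Of 19 alternatives, 15 gave more higher than lower genes in the PDGF and VEGF list, 11 did so in the IGF list and 1 in the FGF list, while 1 and 2 gave more lower genes in the IGF and FGF lists. Fgf7, a mitogen for epithelium, had 37.6, 39 and 37 CPM with vehicle and 179, 184 and 169 CPM with MIZ (log2 fold change 2.23, standard error 0.0542, adjusted p = 9.82e-11, edgeR). Fgf23, a phosphate-regulating hormone, had 10.4, 18.9 and 13.6 CPM with vehicle and 0.857, 0.675 and 0.735 CPM with MIZ (log2 fold change -4.24, standard error 0.24, adjusted p = 4.53e-08). Fgf2, named after its values were seen, also rose (22 to 72.7 CPM), and Fgf21 (15.5 to 2.38 CPM) and Fgf10 (93.1 to 48 CPM) fell. Among vessel growth factors, Pdgfd had 2.46, 3.89 and 6.15 CPM with vehicle and 19.7, 17.8 and 18 CPM with MIZ (log2 fold change 2.10, standard error 0.211, adjusted p = 5.09e-06). Angptl8, an insulin-induced regulator of lipoprotein lipase, had 9.78, 11.7 and 12.8 CPM with vehicle and 1.33, 1.57 and 2.32 CPM with MIZ (log2 fold change -2.73, standard error 0.192, adjusted p = 2.61e-07). Vegfa (749.9 to 399 CPM) and Vegfb (88.9 to 14.1 CPM) fell while Vegfc (10.6 to 27.9 CPM) rose. Of the IGF binding proteins, Igfbp4 had 192, 177 and 188 CPM with vehicle and 27.8, 23.4 and 25.5 CPM with MIZ (log2 fold change -2.86, standard error 0.0722, adjusted p = 1.19e-10). Igfbp3 fell too (433 to 154 CPM), whereas Igfbp5 (36.4 to 353 CPM) and Igfbp7 (192 to 1031 CPM) rose with Igfbp2. Igf1 was not called (68.8 to 74 CPM), but without vehicle replicate 3 its log2 fold change was 0.13 (adjusted p = 0.0351, edgeR). Of 8 EGF family ligands, 4 were higher and 3 lower, with the largest rise in Hbegf, the heparin-binding ligand, at 2.13, 1.77 and 1.55 CPM with vehicle and 10.6, 13.4 and 13.8 CPM with MIZ (log2 fold change 2.81, standard error 0.172, adjusted p = 8.5e-08).

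Adipokines and peptide hormones were 9 higher and 16 lower of 29. The median log2 fold change was -0.78. The falls after Rbp4, named after their values were seen, included Adipoq, the gene of adiponectin (648 to 59.6 CPM), Retn, the gene of resistin (341 to 67.2 CPM), Nampt (329.9 to 66.4 CPM), the vasoactive peptide gene Apln (144 to 31.1 CPM) and Agt, the precursor of angiotensins (149 to 31.1 CPM). Ptn, the growth factor pleiotrophin of preadipocytes, had 2.31, 4 and 5.67 CPM with vehicle and 16.1, 14.6 and 21.9 CPM with MIZ (log2 fold change 2.07, standard error 0.237, adjusted p = 1.46e-05, edgeR), far below the 650.2 CPM of undifferentiated cells. Adm, the gene of adrenomedullin, was not called (109.6 to 104 CPM).

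Chemokines were 14 higher and 6 lower of 27, and cytokines 17 and 11 of 37. Among the cytokines, the alarmin Il33 had 12.6, 9.7 and 5.73 CPM with vehicle and 0.654, 0.378 and 0.412 CPM with MIZ (log2 fold change -4.21, standard error 0.33, adjusted p = 6.49e-07, edgeR). Csf1, the growth factor of macrophages, named after its values were seen, had 396, 275 and 277 CPM with vehicle and 1576, 1650 and 1732 CPM with MIZ (log2 fold change 2.39, standard error 0.126, adjusted p = 2.54e-08). Its MIZ libraries were all over 3 times above its vehicle libraries. The neutrophil attractant Cxcl1 (80.8 to 336 CPM) and the monocyte attractants Ccl2 (164 to 374 CPM) and Ccl7 (90 to 299.5 CPM) rose as well. Cxcl2 (65.4 to 33.8 CPM) and Cxcl12 (201 to 129 CPM) fell. Macrophage markers summed to 636 to 1112 CPM with vehicle and 1121 to 1521 CPM with MIZ, with 6 of 14 higher and 2 lower, and their part in these results was not tested.

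The size or the call of several chemokine and cytokine differences rests on vehicle replicate 1, though not every such gene was high there, and Csf3 had 35, 35.7 and 33.3 CPM with vehicle. Cxcl9, which interferon-gamma induces, had 11.8, 4.51 and 3.45 CPM with vehicle and 1.53, 2.3 and 2.03 CPM with MIZ (log2 fold change -1.72, standard error 0.408, adjusted p = 0.00298, edgeR), the largest fall among chemokines, and without vehicle replicate 1 the log2 fold change was -1.05 (adjusted p = 0.000288, edgeR). Cxcl10 had 102, 29.4 and 32 CPM with vehicle and 22.8, 22.3 and 15.3 CPM with MIZ (log2 fold change -1.41, standard error 0.414, adjusted p = 0.00997), and without that library -0.61 (adjusted p = 0.00152, edgeR). Il1b had 25.9, 5.32 and 2.92 CPM with vehicle and 1.08, 1.41 and 1.5 CPM with MIZ (log2 fold change -3.06, standard error 0.741, adjusted p = 0.00337), and without it -1.66 (adjusted p = 0.000275, edgeR). The falls of these genes therefore kept their direction and their calls but shrank. Tnf had 21.1, 5.86 and 6.29 CPM with vehicle and 10.5, 10.8 and 10.3 CPM with MIZ, with the MIZ libraries inside the vehicle range, and was not called (adjusted p = 0.973), whereas without vehicle replicate 1 its log2 fold change was 0.79 (adjusted p = 4.17e-06, edgeR). Ccl3 and Ccl4 likewise were not called with all libraries and passed without that library, at 1.07 (adjusted p = 1.04e-08, edgeR) and 0.71 (adjusted p = 0.00053, edgeR).

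Guidance ligands and neurotrophins, proteins that steer axons and vessels, were 24 higher and 11 lower of 42. Their median log2 fold change was 0.90. After Ntn4, named after their values were seen, Sema7a (3.94 to 39.3 CPM), the SLIT ligands Slit2 (43.9 to 286 CPM) and Slit3 (265 to 622 CPM) and Efnb1 (12.5 to 57.7 CPM) rose, and Sema6d (62.3 to 11.9 CPM) and Efna5 (38.1 to 9.57 CPM) fell. Their receptors, the plexins, neuropilins, ROBO and UNC5 proteins, were 12 higher and 5 lower of 18. Plxnb1, a receptor for semaphorin 4D, had 1.79, 1.35 and 1.06 CPM with vehicle and 11.9, 11.3 and 9.03 CPM with MIZ (log2 fold change 2.99, standard error 0.161, adjusted p = 3.04e-08, edgeR). Unc5a, a netrin receptor, had 8.69, 9.66 and 10.2 CPM with vehicle and 2.37, 2.24 and 3.03 CPM with MIZ (log2 fold change -1.91, standard error 0.141, adjusted p = 3.93e-07). Robo1, the SLIT receptor, rose from 4.77 ± 0.226 to 24.6 ± 1.18 CPM, and Nrp1 fell slightly (116 to 92.9 CPM). Plxnb1 and Unc5a each overlap a gene on the other strand.

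Receptor tyrosine kinases were 27 higher and 10 lower of 43. Their median log2 fold change was 1.10. Flt4, the receptor of VEGF-C and VEGF-D, had 1.12, 0.876 and 0.731 CPM with vehicle and 14.1, 15.5 and 13.7 CPM with MIZ (log2 fold change 4.03, standard error 0.147, adjusted p = 1.39e-09, edgeR). Ntrk2, the receptor of BDNF, had 14.6, 19.4 and 30.4 CPM with vehicle and 2.46, 1.41 and 0.941 CPM with MIZ (log2 fold change -3.71, standard error 0.332, adjusted p = 1.97e-06). Other receptor genes were chosen after their values were seen. Pdgfrb, the receptor of PDGF-BB on mural and stromal cells, had 76.6, 79 and 86.3 CPM with vehicle and 533, 509.7 and 516 CPM with MIZ (log2 fold change 2.69, standard error 0.0572, adjusted p = 4.71e-11). Axl, the GAS6 receptor, had 201, 162 and 137 CPM with vehicle and 770, 768 and 792 CPM with MIZ (log2 fold change 2.22, standard error 0.112, adjusted p = 1.69e-08). Its ligand gene Gas6 rose from 120 ± 53.8 to 279.9 ± 17 CPM. Insr, the insulin receptor, had 373, 382 and 372 CPM with vehicle and 131, 139 and 142 CPM with MIZ (log2 fold change -1.45, standard error 0.0429, adjusted p = 3.06e-10). Igf1r, its close relative, had 74.1, 80.8 and 74.6 CPM with vehicle and 375, 350.1 and 338 CPM with MIZ (log2 fold change 2.21, standard error 0.0543, adjusted p = 1.01e-10). For each of these kinases the groups were separate, with MIZ higher for Flt4, Pdgfrb, Axl and Igf1r and vehicle higher for Ntrk2 and Insr. Ptk7 (17.6 to 217 CPM), Ephb3 (4.77 to 47.5 CPM) and Fgfr1 (168 to 426 CPM) also rose, Met, the HGF receptor, fell (77.5 to 13.4 CPM), and Egfr fell slightly (299.8 to 247 CPM, log2 fold change -0.28). Epha7 (8.22 to 11.1 CPM) was not called with all libraries, but its log2 fold change without vehicle replicate 1 was 0.80 (adjusted p = 1.03e-05, edgeR).

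**Figure D4:**
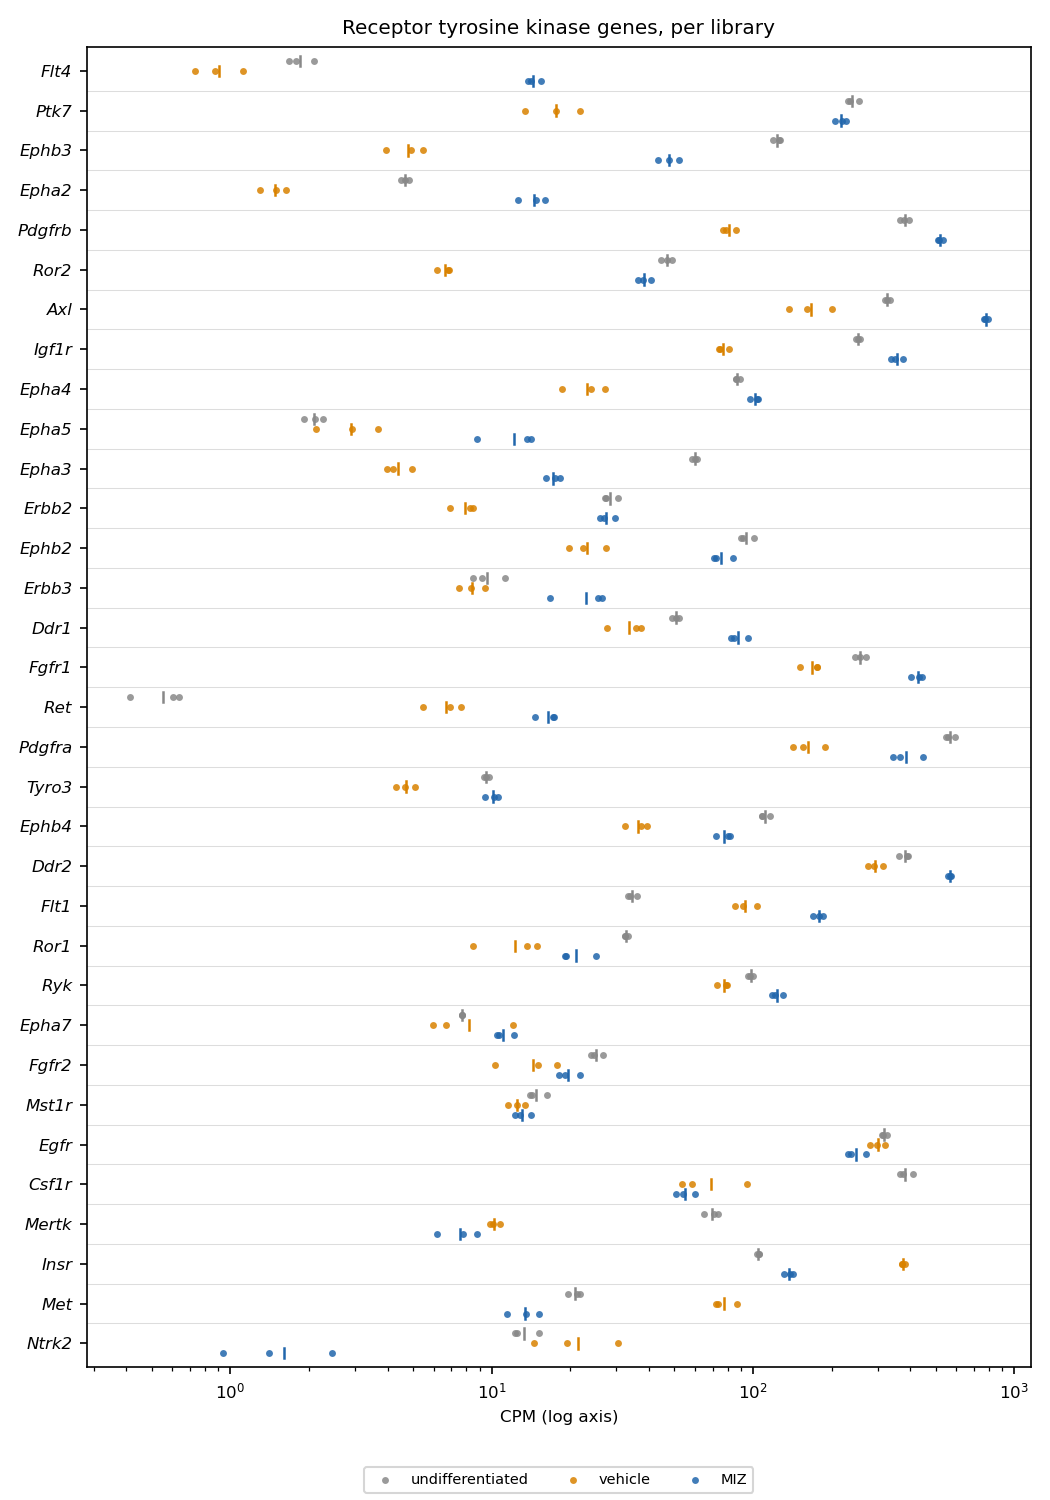
CPM (log axis) in each library of the receptor tyrosine kinase genes with a mean of at least 5 CPM with vehicle or MIZ, in order of log2 fold change, with group means as bars (n = 3). Kinases from Flt4 down to Fgfr2 are mostly higher with MIZ, and Insr, Met and Ntrk2 at the foot are lower with MIZ.

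G protein-coupled receptors were 58 higher and 66 lower of 159 with TMM, and 62 higher and 62 lower without it. The direction of the list thus did not hold without TMM, the only 1 of 19 alternatives that changed its balance. The members given here were named after their values were seen, except the leading ones above, and no grouping of them by function was tested. Adrb3, the adipocyte beta-adrenergic receptor, had 173, 125 and 134 CPM with vehicle and 11, 14.8 and 20.6 CPM with MIZ (log2 fold change -3.23, standard error 0.2, adjusted p = 9.62e-08, edgeR). Tshr, the thyrotropin receptor, had 69.4, 68.7 and 71.2 CPM with vehicle and 2.93, 3.16 and 4.03 CPM with MIZ (log2 fold change -4.38, standard error 0.11, adjusted p = 1.15e-10). Ffar2, for short-chain fatty acids (35.9 to 1.69 CPM), and Hcar1, for lactate (16.2 to 2.46 CPM), fell as well. Agtr2, an angiotensin receptor (8.22 to 4.31 CPM), Lpar4, for lysophosphatidic acid (8.01 to 6.12 CPM), and P2ry2, for nucleotides (11.5 to 9.25 CPM), were also lower. The Agtr2 call was lost without MIZ replicate 2 or vehicle replicate 3 (adjusted p = 0.0597 and 0.0574, edgeR). That of Lpar4 was lost without MIZ replicate 1 or 2 (adjusted p = 0.074 and 0.0537, edgeR). That of P2ry2 was lost without vehicle replicate 1, MIZ replicate 1 or MIZ replicate 3 (adjusted p = 0.0549, 0.0661 and 0.0653, edgeR). Other receptor genes rose. F2r, the thrombin receptor PAR1, had 24, 32.2 and 36.7 CPM with vehicle and 306, 325 and 352 CPM with MIZ (log2 fold change 3.39, standard error 0.129, adjusted p = 1.87e-09). S1pr3, a sphingosine 1-phosphate receptor, had 45, 68.2 and 61.6 CPM with vehicle and 302, 281 and 300 CPM with MIZ (log2 fold change 2.33, standard error 0.121, adjusted p = 2.3e-08). Htr1b, a serotonin receptor, rose from 4.5 ± 1.43 to 59.5 ± 12.8 CPM, Avpr1a, a vasopressin receptor, from 5.76 ± 1.15 to 49.2 ± 1.84 CPM, and Lpar1, another receptor of lysophosphatidic acid, from 26.7 ± 1.4 to 78.5 ± 9.49 CPM. Gpr84 (5.24 to 5.79 CPM) and Fpr1 (13.7 to 15.1 CPM), receptors of myeloid cells, were not called with all libraries, and without vehicle replicate 1 their log2 fold changes were 1.43 (adjusted p = 1.83e-05, edgeR) and 1.12 (adjusted p = 0.000207, edgeR).

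Cytokine and TNF family receptors were 32 higher and 14 lower of 65. Il1rl1, the receptor of IL-33, had 5.78, 6.24 and 3.96 CPM with vehicle and 43.6, 56.2 and 47.7 CPM with MIZ (log2 fold change 3.21, standard error 0.149, adjusted p = 9.06e-09, edgeR), the opposite direction to the Il33 gene. Prlr, the prolactin receptor, had 170, 154 and 147 CPM with vehicle and 13.1, 15.8 and 17.7 CPM with MIZ (log2 fold change -3.34, standard error 0.115, adjusted p = 8.95e-10). The death receptor gene Fas rose from 14.6 ± 3.17 to 57 ± 4.04 CPM and Ngfr, the low-affinity neurotrophin receptor that Schwann cells also carry, from 40.4 ± 9.34 to 109 ± 21.9 CPM. Ghr, the growth hormone receptor (203 to 72.6 CPM), and Tnfrsf1a, the main TNF receptor (288 to 169 CPM), fell. Notch receptors, ligands and targets were 13 higher and 6 lower of 25. Maml2, a coactivator of Notch, had 10.9, 9.34 and 11.9 CPM with vehicle and 73.2, 75.2 and 80.4 CPM with MIZ (log2 fold change 2.83, standard error 0.0825, adjusted p = 2.78e-10). Notch1 had 75.8, 75.2 and 86.3 CPM with vehicle and 59.5, 62.4 and 54.4 CPM with MIZ (log2 fold change -0.43, standard error 0.0652, adjusted p = 0.000133). Notch2 rose from 134 ± 7.44 to 297 ± 16 CPM and the target Hes1 from 6 ± 1.41 to 16.9 ± 1.47 CPM.

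Genes of the Hippo pathway, whose effector YAP joins TEAD factors when cells spread and pull on their matrix, were 21 higher and 5 lower of 30. Their median log2 fold change was 0.89. The targets Ccn2 and Ankrd1 led, and Crim1 (19.3 to 144 CPM) and Ccn1 (98.9 to 343 CPM), named after their values were seen, followed. The TEAD gene Tead1 had 204, 209 and 212 CPM with vehicle and 486, 507 and 546 CPM with MIZ (log2 fold change 1.30, standard error 0.0497, adjusted p = 1.94e-09, edgeR). The effector gene Yap1 had 111, 133 and 137 CPM with vehicle and 232, 223 and 246 CPM with MIZ (log2 fold change 0.88, standard error 0.0735, adjusted p = 1.13e-06). The cofactor gene Vgll3 had 49.8, 30.1 and 24.2 CPM with vehicle and 326, 332 and 331 CPM with MIZ (log2 fold change 3.27, standard error 0.205, adjusted p = 1.05e-07). All MIZ libraries were above all vehicle libraries for these members. Wwtr1, which encodes the second effector TAZ, was not called (189.9 to 179 CPM, adjusted p = 0.146), though without vehicle replicate 3 its log2 fold change was -0.13 (adjusted p = 0.0426, edgeR). Lats2, an inhibitory kinase that YAP induces, rose from 53.4 ± 3.15 to 156 ± 4.51 CPM, Nf2, an upstream inhibitor, fell from 147 ± 2.36 to 73 ± 0.625 CPM. Nt5e had 2.28, 7.78 and 9.34 CPM with vehicle and 0.947, 0.351 and 0.647 CPM with MIZ (log2 fold change -3.32, standard error 0.488, adjusted p = 0.000104), the largest fall of the list. Myofibroblast and smooth muscle markers summed to 253 to 296 CPM with vehicle and 7566 to 9883 CPM with MIZ, and their part in these rises was not tested. Among the small GTPases of the Rhoa, Rac1 and Cdc42 family, 10 were higher and 8 lower of 23. Rhoc had 98.3, 98.5 and 100.1 CPM with vehicle and 289, 275 and 274 CPM with MIZ (log2 fold change 1.5, standard error 0.0548, adjusted p = 1.41e-09). Rhot2, a mitochondrial GTPase, had 73.6, 83 and 86.3 CPM with vehicle and 22.8, 22.7 and 21.8 CPM with MIZ (log2 fold change -1.85, standard error 0.0673, adjusted p = 1.34e-09), while Rhoa was not called (378 to 368 CPM).

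Lists of the cAMP relay held more higher than lower genes or near equal numbers, while some members known from adipocytes fell. Adenylyl cyclases and phosphodiesterases were 11 higher and 10 lower of 28, and 10 and 10 with several of the other settings. Pde3b, through which insulin lowers cAMP in adipocytes, had 568, 649 and 681 CPM with vehicle and 53.9, 63.5 and 70.3 CPM with MIZ (log2 fold change -3.34, standard error 0.105, adjusted p = 4.51e-10, edgeR). Adcy1, a calcium-stimulated cyclase, had 2.58, 2.24 and 2.63 CPM with vehicle and 14.3, 10.9 and 11.9 CPM with MIZ (log2 fold change 2.33, standard error 0.123, adjusted p = 2.69e-08). Adcy5, a major cyclase of adipocytes, named after its values were seen, fell from 234 ± 37.9 to 34.9 ± 4.75 CPM. Protein kinase A and CREB genes were 14 higher (63.6%, against 37.1% of all genes tested) and 6 lower of 22, while a regulatory and a catalytic subunit of the kinase fell. Prkar2b had 463, 486 and 526 CPM with vehicle and 68.7, 74.5 and 82 CPM with MIZ (log2 fold change -2.71, standard error 0.0858, adjusted p = 4.77e-10). Prkaca had 269, 288 and 289 CPM with vehicle and 104, 101 and 105 CPM with MIZ (log2 fold change -1.45, standard error 0.0451, adjusted p = 4.38e-10). Creb3l1, a membrane-bound factor of the secretory pathway, rose from 52.7 ± 5.1 to 266 ± 3.98 CPM. G protein subunits were 12 higher and 7 lower of 26. Gng8 had 0.597, 0.748 and 0.996 CPM with vehicle and 8.32, 7.03 and 8.21 CPM with MIZ (log2 fold change 3.29, standard error 0.16, adjusted p = 1.31e-08). Gnai1, the inhibitory alpha subunit, had 140.5, 150.1 and 165 CPM with vehicle and 28.9, 29.8 and 32.8 CPM with MIZ (log2 fold change -2.31, standard error 0.0799, adjusted p = 9.01e-10). Gnas was not called (942 to 901 CPM). RGS proteins, which switch G proteins off, were 11 higher and 4 lower of 17. Rgs8 had 3.88, 3.04 and 4.07 CPM with vehicle and 23.6, 23.9 and 18.1 CPM with MIZ (log2 fold change 2.59, standard error 0.141, adjusted p = 3.34e-08). Rgs2 had 46.1, 56.4 and 54.6 CPM with vehicle and 5.03, 3.86 and 4.74 CPM with MIZ (log2 fold change -3.52, standard error 0.106, adjusted p = 3.42e-10).

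MAP kinase feedback inhibitors were 11 higher and 14 lower of 31, and JAK, STAT and SOCS genes 6 higher and 11 lower of 23. Without TMM these counts were 11 and 11, and 9 and 8, so neither direction held without that normalization. Of 19 alternatives, it was the only 1 that changed the balance of either list. Spred3 had 8.47, 7.84 and 7.7 CPM with vehicle and 22.8, 26.7 and 25 CPM with MIZ (log2 fold change 1.64, standard error 0.0794, adjusted p = 1.3e-08, edgeR). Dusp23 had 28.2, 26 and 27.1 CPM with vehicle and 6.06, 5.92 and 5.65 CPM with MIZ (log2 fold change -2.20, standard error 0.0758, adjusted p = 8.9e-10). The feedback genes Spry1 (17.5 to 44.4 CPM) and Dusp6 (21.4 to 31.1 CPM) rose, and Spry4 (50.5 to 30.1 CPM), Dusp4 (78.1 to 37.4 CPM) and Dusp10 (53.6 to 11.8 CPM) fell. Socs5 had 48.5, 39.1 and 35.8 CPM with vehicle and 116, 128 and 123 CPM with MIZ (log2 fold change 1.58, standard error 0.0947, adjusted p = 7.3e-08). Jak3, which overlaps Insl3, had 46.2, 46.5 and 46.5 CPM with vehicle and 9.29, 8.76 and 9.65 CPM with MIZ (log2 fold change -2.33, standard error 0.052, adjusted p = 5.9e-11). Stat5a, a relay of prolactin and growth hormone, named after its values were seen, had 117, 106 and 98.2 CPM with vehicle and 23, 24.8 and 23.5 CPM with MIZ (log2 fold change -2.17, standard error 0.0667, adjusted p = 3.98e-10).

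Targets of p53, which restrains growth under stress that includes loss of nucleotides, were 18 higher and 4 lower of 28. Their median log2 fold change was 0.74. Pmaip1, the gene of the death-promoting NOXA, had 2.91, 3.06 and 2.86 CPM with vehicle and 20.6, 22.4 and 18.9 CPM with MIZ (log2 fold change 2.81, standard error 0.0923, adjusted p = 6.31e-10, edgeR). Of members named after their values were seen, Mdm2, the feedback inhibitor of p53, rose from 125 ± 11.7 to 224 ± 20.7 CPM, Bax from 45.2 ± 3.5 to 91.6 ± 6.07 CPM and Ccng1 from 379 ± 9.85 to 752 ± 11.7 CPM. Cdkn1a, the gene of the cell cycle inhibitor p21, had 415, 429 and 419 CPM with vehicle and 419, 408 and 385 CPM with MIZ and was not called (log2 fold change -0.06, standard error 0.0437, adjusted p = 0.244). Its groups overlapped. Ddb2, a DNA repair gene, had 4.29, 5.39 and 5.64 CPM with vehicle and 2.34, 2.3 and 2.18 CPM with MIZ (log2 fold change -1.18, standard error 0.126, adjusted p = 8.5e-06), and it overlaps Acp2. Of 40 DNA replication and mitosis genes, 21 were higher and 5 lower, and Rrm2, a ribonucleotide reductase subunit, rose most (3.5 to 13 CPM, with 27.1 CPM in undifferentiated cells). The proliferation marker Mki67 rose from 11.5 ± 4.29 to 20.4 ± 8.69 CPM (adjusted p = 0.0294), with 252 CPM in undifferentiated cells, and its call was lost without vehicle replicate 1 (adjusted p = 0.0648), vehicle replicate 2 (0.0958) or MIZ replicate 3 (0.154). Without vehicle replicate 2 or MIZ replicate 3, only 13 genes of this list were called higher.

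Nuclear receptors were 7 higher and 20 lower of 35. Their median log2 fold change was -0.44, the reverse of most other transcription factor lists. After Ppara, the falls, named after their values were seen, took in Pparg, the master regulator of adipogenesis, with 162, 175 and 182 CPM with vehicle and 19.1, 20.9 and 24.4 CPM with MIZ (log2 fold change -3.02, standard error 0.095, adjusted p = 4.65e-10, edgeR). Nr1h3, the gene of the oxysterol receptor LXRα, had 90.6, 87.9 and 81.8 CPM with vehicle and 16, 18.8 and 18.9 CPM with MIZ (log2 fold change -2.28, standard error 0.116, adjusted p = 1.95e-08). Esr1, an estrogen receptor, had 11.3, 9.47 and 11.3 CPM with vehicle and 0.789, 0.811 and 1.18 CPM with MIZ (log2 fold change -3.54, standard error 0.145, adjusted p = 3.48e-09), and Thrb, a thyroid hormone receptor, fell from 34.8 ± 3.09 to 7.35 ± 0.27 CPM. Rxrg fell from 9.5 ± 1.12 to 0.937 ± 0.14 CPM, and Rxra fell less (88.1 to 65.3 CPM). Nr3c1, the glucocorticoid receptor, fell from 183 ± 5.7 to 127 ± 1.46 CPM (log2 fold change -0.53). Against these, Vdr, the vitamin D receptor, had 0.858, 2.31 and 2.75 CPM with vehicle and 45.6, 42.6 and 34 CPM with MIZ (log2 fold change 4.28, standard error 0.248, adjusted p = 5.37e-08), above the 18.5 CPM of undifferentiated cells. The retinoic acid receptor genes Rara (24 to 44.5 CPM) and Rarg (15.5 to 31.8 CPM) and the immediate-early gene Nr4a1 (15.4 to 29 CPM) rose. The clock repressors Nr1d1 (49.7 to 50.6 CPM) and Nr1d2 (47 to 49.3 CPM) were not called. Adipocyte markers fell in the same libraries, and their part in these falls was not tested.

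**Figure D5:**
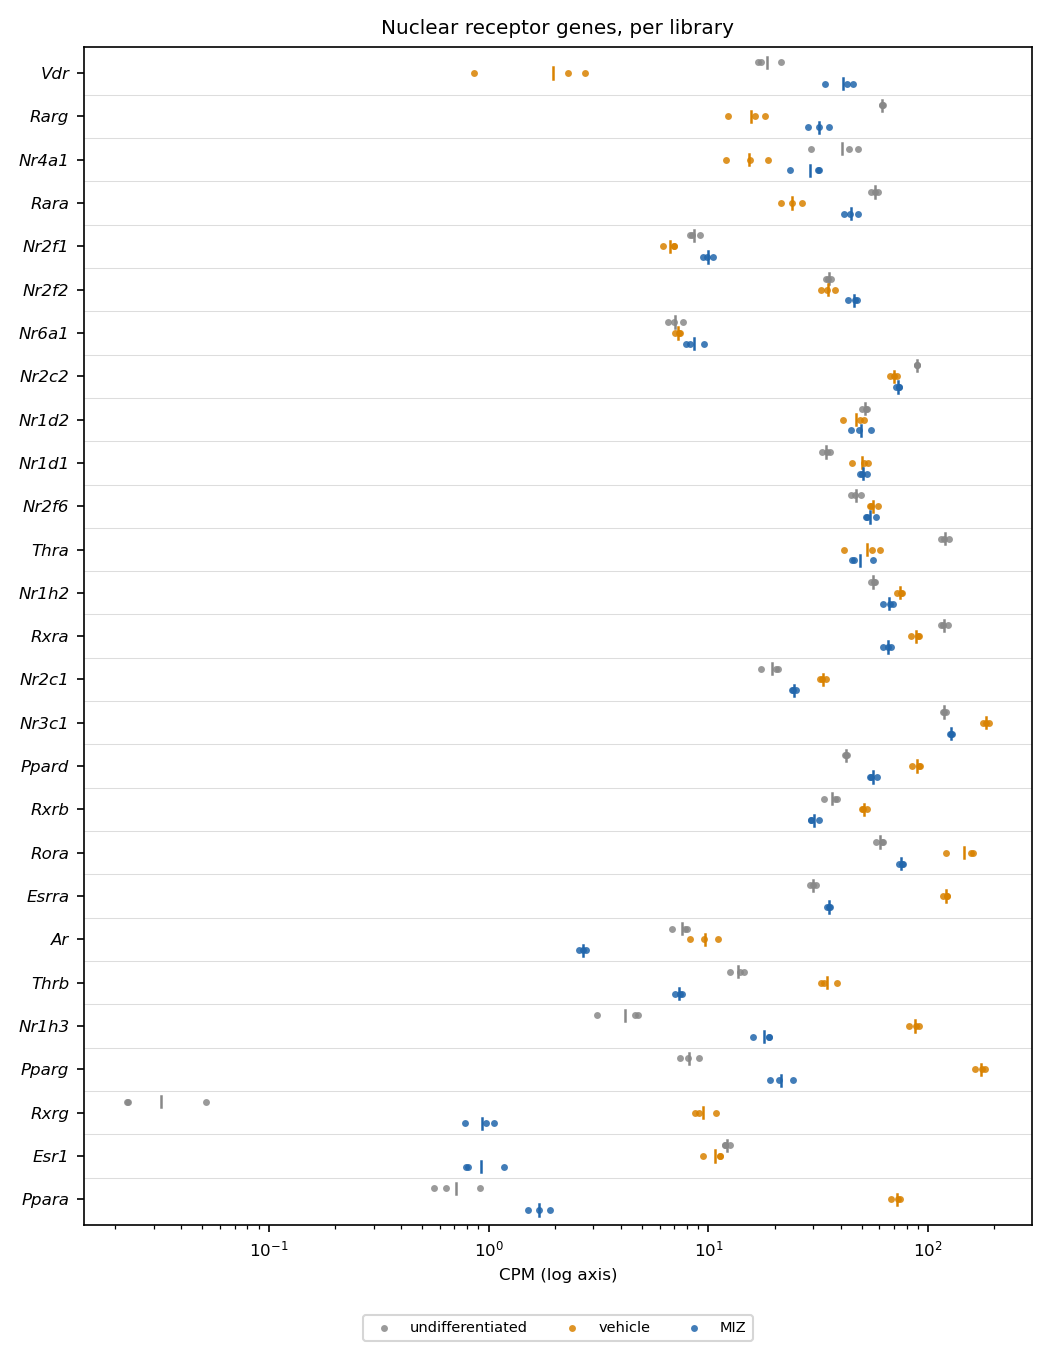
CPM (log axis) in each library of nuclear receptor genes with a mean of at least 5 CPM with vehicle or MIZ, in order of log2 fold change, with group means as bars (n = 3). Vdr stands alone at the top with MIZ far above vehicle, and Pparg, Rxrg, Esr1 and Ppara at the foot have MIZ far below vehicle.

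The C/EBP and myocardin family, with 4 higher and 4 lower of 8, split between its branches. Cebpa, which acts with PPARγ in adipocytes, had 541, 543 and 606 CPM with vehicle and 77.7, 76.7 and 81.5 CPM with MIZ (log2 fold change -2.84, standard error 0.0556, adjusted p = 3.37e-11, edgeR), and Cebpb, which acts earlier, fell less (296 to 198 CPM). Mrtfa, the actin-sensing partner of SRF, had 24.9, 23.3 and 24 CPM with vehicle and 82.4, 81.4 and 76.8 CPM with MIZ (log2 fold change 1.74, standard error 0.048, adjusted p = 2.02e-10). Srf itself rose from 37.4 ± 2.21 to 60.7 ± 2.36 CPM. KLF factors were 9 higher and 5 lower of 14. Klf4 had 22.2, 27.1 and 24 CPM with vehicle and 64, 58.9 and 57.7 CPM with MIZ (log2 fold change 1.30, standard error 0.0724, adjusted p = 4.04e-08). Klf15, a glucocorticoid-induced factor of adipogenesis, had 41.3, 37.5 and 34.8 CPM with vehicle and 11.6, 10.3 and 8.85 CPM with MIZ (log2 fold change -1.88, standard error 0.132, adjusted p = 2.68e-07). Basic helix-loop-helix and SNAI factors were 18 higher and 21 lower of 47, and 19 and 18 without TMM. Mlxipl, the gene of the carbohydrate sensor ChREBP, had 79.1, 74.5 and 73.1 CPM with vehicle and 4.37, 5.46 and 6.41 CPM with MIZ (log2 fold change -3.81, standard error 0.111, adjusted p = 2.78e-10), and Srebf1, the lipogenic factor (819 to 157 CPM), and Ebf2, a factor of beige and brown adipocytes (48.1 to 16.1 CPM), fell too. Snai1 (13.8 to 74.5 CPM), Twist1 (15.9 to 40 CPM) and Twist2 (48 to 174 CPM), factors of mesenchymal cells, and Hif1a (224 to 538 CPM), the hypoxia factor, rose, all of them named after their values were seen.

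Immediate-early factors were 10 higher, 7 lower and 12 not called of 29, and their log2 fold changes ran from -2.89 to 5.11, with Mycl the highest. Jun (109 to 121 CPM), Junb (110 to 112 CPM) and Egr1 (78.5 to 94.3 CPM) were not called with all libraries, and without MIZ replicate 3 the log2 fold changes of Jun and Egr1 were 0.21 (adjusted p = 0.0306, edgeR) and 0.38 (adjusted p = 0.00733, edgeR). Fos fell slightly (12.7 to 10.4 CPM, adjusted p = 0.0358, edgeR), but its groups overlapped and the call was lost without any of 5 single libraries. Myc fell from 79.7 ± 4.9 to 56.8 ± 3.52 CPM. ETS factors were 9 higher and 6 lower of 22. Etv4 had 0.522, 0.406 and 0.465 CPM with vehicle and 5.32, 6.75 and 6.65 CPM with MIZ (log2 fold change 3.76, standard error 0.191, adjusted p = 1.89e-08). Etv3 had 225, 230 and 254 CPM with vehicle and 64.9, 66.1 and 66.3 CPM with MIZ (log2 fold change -1.85, standard error 0.0543, adjusted p = 2.91e-10). IRF, NF-kappaB and GLI factors were 11 and 6 of 24. Gli3, a hedgehog effector, had 16.7, 13.6 and 11.6 CPM with vehicle and 57.9, 56.6 and 53.7 CPM with MIZ (log2 fold change 2.02, standard error 0.103, adjusted p = 1.91e-08). Irf7, an interferon regulator, had 51.6, 31.5 and 24.4 CPM with vehicle and 20.8, 18.7 and 11.3 CPM with MIZ (log2 fold change -1.06, standard error 0.27, adjusted p = 0.00443), with vehicle replicate 1 again the highest.

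Factors that give cells their position and lineage were more often higher. Homeobox factors outside the HOX clusters were 31 higher and 10 lower of 56, forkhead factors 16 and 4 of 25, and T-box, GATA, SOX and RUNX factors 16 and 5 of 28. En1, a factor of dorsal dermal fibroblasts, had 10.9, 10.2 and 11.4 CPM with vehicle and 51.9, 50.7 and 47.2 CPM with MIZ (log2 fold change 2.21, standard error 0.0638, adjusted p = 2.64e-10, edgeR). Irx3 had 10.6, 10.2 and 9.98 CPM with vehicle and 2.52, 2.32 and 2.88 CPM with MIZ (log2 fold change -2.0, standard error 0.114, adjusted p = 4.76e-08). Foxf2, a factor of mesenchyme and pericytes, had 0.522, 0.492 and 0.62 CPM with vehicle and 5.79, 5.89 and 7.47 CPM with MIZ (log2 fold change 3.54, standard error 0.209, adjusted p = 6.52e-08). Foxo1, which insulin holds out of the nucleus, had 79.6, 78.2 and 81.8 CPM with vehicle and 25, 23.6 and 21.8 CPM with MIZ (log2 fold change -1.77, standard error 0.0594, adjusted p = 7.37e-10). Gata2, which holds preadipocytes undifferentiated, had 1.04, 0.748 and 0.819 CPM with vehicle and 6.99, 6.75 and 6.35 CPM with MIZ (log2 fold change 2.98, standard error 0.129, adjusted p = 5.38e-09), close to the 6.92 CPM of undifferentiated cells. Sox5 had 17.9, 16.4 and 14.9 CPM with vehicle and 9.2, 9.89 and 8.74 CPM with MIZ (log2 fold change -0.82, standard error 0.0984, adjusted p = 2.17e-05). Of genes named after their values were seen, Runx1 (67.9 to 236 CPM), Runx2 (16.1 to 45.8 CPM), Sox9 (8.16 to 26.2 CPM) and Foxp1 (60.9 to 168 CPM) rose. Sox10 (4.91 to 17.7 CPM) and Foxd3 (2.69 to 10.4 CPM), which mark Schwann cells and their precursors, rose, while Mbp (13.4 to 6.37 CPM) and S100b (4.35 to 1.79 CPM) of the marker list of Schwann cells and neurons fell. HOX genes were 12 higher and 10 lower of 30, with Hoxb9 up and Hoxa4 down the most. Hoxb9 had 5.82, 6.99 and 5.09 CPM with vehicle and 30.6, 29.4 and 32.1 CPM with MIZ (log2 fold change 2.36, standard error 0.0962, adjusted p = 3.32e-09). Hoxa4 had 6.01, 6.52 and 6.84 CPM with vehicle and 1.24, 1.22 and 1.79 CPM with MIZ (log2 fold change -2.20, standard error 0.153, adjusted p = 2.38e-07). By cluster, the called HoxC genes Hoxc4, Hoxc5 and Hoxc6 rose and Hoxc10 fell, with log2 fold changes of 2.34, 2.15, 1.31 and -0.80, though Hoxc5 and Hoxc10 each overlap another gene in the annotation.

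Some of the genes named may share reads with a neighbour, since the annotation places them across or beside another gene. Of those not yet marked so, Acvr1c, Notch1, Spred3, Rgs8, Ltbp3, Ccnd1, Hoxa4, Irx3, Foxo1, Sox5, Mlxipl, Gli3, Irf7, Mrtfa and Cebpa overlap a gene on the other strand, and Rhot2 overlaps Wdr90 on its own strand. Of genes named after their values were seen, the same holds for Fstl3, Wnt5a, Fgf2, Fgf10, Igfbp7, Gas6, Cxcl10, Il1b, Fgfr1, Eng, S1pr3, Htr1b, Adrb3, Stat5a, Crim1, Yap1, Ctnnb1, Jun, Nr1h3, Runx1, Runx2, Twist2, Hif1a, Srebf1, Ebf2 and Cebpb. For all of these the values may hold reads of both genes.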

How the data were processed

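RNAseq libraries of 9 SVF cell cultures were used, 3 undifferentiated, 3 vehicle and 3 MIZ, grouped by the labels. The MIZ dose comes from a figure legend of the study, not from the labels. According to the study's methods, the authors used Trim Galore 0.6.7 for trimming and STAR for alignment to mm10, whose own gene counts they name, while the labels also name HTSeq. The deposited values are raw counts per Ensembl gene. The annotation release and the strand setting are not given in the sources used here, and coordinates are those of GRCm38. Genes were tested when 3 or more of the 6 MIZ and vehicle libraries held 5 or more counts, with edgeR 4.0.16 (R 4.3.3, limma 3.58.1), using TMM normalization and the quasi-likelihood test on all 9 libraries. P-values were adjusted by Benjamini and Hochberg over all genes tested, with calls made below 0.05. CPM values were scaled by TMM, and values after ± are SDs of 3 libraries. Summed marker levels were compared by a two-sided exact permutation test.

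The members and gene lists were chosen with earlier results of these data known. Named genes were, among called genes with a mean of at least 5 CPM with MIZ or vehicle and no overlap between those libraries, the 12 largest rises and the 12 largest falls over all lists, the largest of each direction in each list, and Impdh1 and Impdh2. A few of these genes are not reported here. Genes named beyond that rule were chosen after their values were seen. Total counts of 28760721 to 55288455 per library set the precision, and low genes rest on few reads. Alternatives were other fits, normalizations and filters, DESeq2 1.42.0, a replicate block and each library left out. The scripts were tested on simulated data. Intervals and floors cover counting error only. Replicate numbers were not used as pairs, since the labels do not say whether same-numbered libraries share an animal. Deviations of same-numbered MIZ and vehicle libraries from their group means correlated at -0.018, -0.03 and 0.0429, which cannot settle this with 3 libraries per group.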

Additional observations from a re-analysis of the deposited data

How the results depend on the processing

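Counts of called genes over all genes moved by less than 1.5 times under every alternative run, except that a filter of at least 50 counts in at least 3 libraries left 1765 genes over 2-fold higher instead of 2666, with 12835 instead of 16344 genes tested. Of the counts of higher or lower genes in single lists, 20 moved by more than that and 1614 did not. Leaving out each library in turn gave 5598 to 6090 genes higher, 5669 to 6159 lower, 2578 to 2658 over 2-fold higher, 2769 to 2858 over 2-fold lower and 32 to 33 of the 41 lists with more higher than lower genes, instead of 31. With library size alone in place of TMM, the median log2 fold change of all genes was 0.15 instead of 0.01, and 58.6% of calls were higher instead of 50.4%. With DESeq2, 11805 genes were called, and with the 6 libraries alone 11487. Of 827 list and context genes, leaving out a library lost at most 25 calls (MIZ replicate 3) and gained at most 32 (vehicle replicate 1). Among the genes called with all libraries, 0 reversed. Reversals were not counted among the other genes, where Tnf went from a log2 fold change of -0.02 to 0.79 without vehicle replicate 1.

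A fit with the replicate number as a block called 11907 genes and left 31 of the lists with more higher than lower genes. The numbers share no stated origin and same-numbered libraries did not deviate together, so this block is not known to be a pairing of the samples. Of the genes named by rule, only mt-Co3 lost its call where an adjusted p was given, in the fits without each MIZ replicate (adjusted p = 0.0566 to 0.0677, edgeR), and the cause was not tested. DESeq2 gave mt-Co3 no adjusted p, and the filter of at least 50 counts left it untested. Depth limits the genes near 0 counts in one group, whose fitted fold changes depend on the prior count.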

Other observations

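Among genes in none of the lists, the 8 largest rises with MIZ included several of contractile and stromal cells. Lrrc15, a membrane protein of activated fibroblasts, had 0.187, 0.321 and 0.244 CPM with vehicle and 20.6, 21.8 and 39.9 CPM with MIZ (log2 fold change 6.70, standard error 0.379, adjusted p = 4.43e-08, edgeR). Ppp1r14a, an inhibitor of myosin phosphatase in smooth muscle, had 0.112, 0.15 and 0.266 CPM with vehicle and 12.9, 12.1 and 14.4 CPM with MIZ (log2 fold change 6.13). Sh3bgr, a gene of heart and skeletal muscle, rose from 0.0631 to 6.38 CPM in the group means, Ica1l, which overlaps Fam117b on the other strand, from 0.0565 to 9.71 CPM, and the noncoding 3300005D01Rik from 0.285 to 19.8 CPM. The channel gene Kcnn3, Ces2e and Ifi27l2b were the others. By the choice of genes, the libraries of the groups did not overlap for any of them. Lrrc15 alone was high in undifferentiated cells, at 36.5 CPM. Smooth muscle and myofibroblast markers rose in the same libraries, and their part was not tested.

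The 8 largest falls included genes of brown and beige adipocytes. Ucp1, the uncoupling protein of brown fat, had 62, 60.7 and 57.4 CPM with vehicle and 2 counts in all over the MIZ libraries, a ratio of 3446 (95% interval 953 to 28460, counting error only). Cidea, a lipid droplet protein, had 1 count over the MIZ libraries against 14229 with vehicle, and Gm47593 and Gm47595, a pair of antisense gene models near each other on chromosome 10, had 1 count each against 2650 and 2082. Depp1 had 1.49, 7.57 and 8.23 CPM with vehicle, with vehicle replicate 1 the lowest, and Mmd2 10.2, 5.32 and 4.83 CPM, with the same library the highest, and each had 2 counts over the MIZ libraries. Aspg fell from 27.4 to 0.0939 CPM. The gene mt-Co3 overlaps mt-Atp6 on its own strand, and reads shared by both may not have been counted. The size of its fall rests on vehicle replicate 3, which had 15.0 CPM against 0.336 and 0.171 CPM in the other vehicle libraries. Without that library its log2 fold change was -4.36 instead of -8.84 (adjusted p = 0.00367, edgeR).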
